A study of Mus musculus with 56 samples.

Results

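The expression of 40 genes of the cell cycle and of DNA replication was examined in mammary tumor cell lines of the MMTV-PyMT mouse, in which the polyoma middle T oncogene is driven by the mouse mammary tumor virus promoter. The 40 genes were given as a list and were looked up among the 20314 genes of the expression table. All 40 were found, and all 40 passed the filter that left 13754 genes for testing. The question was whether TGFβ lowered, or Wnt3a raised, this proliferation program in each of 7 β-catenin genotypes. These were taken from the titles and mutation labels, whereas the treatment label of the same samples speaks of Pygo2 cell lines, a conflict the labels do not resolve. According to the methods, the lines came from tumors of MMTV-PyMT transgenic females on the FVB/N background, so every group carries the PyMT transgene. In fl/fl cells both alleles were floxed. D164A/fl, ΔC/fl and dm/fl cells paired a mutant allele with a floxed one, and in D164A/-, ΔC/- and dm/- cells the floxed one had been removed. The D164A exchange abolishes binding of β-catenin to Bcl9 and Bcl9L, whereas the ΔC and dm alleles are not described further by the labels. The methods describe removal of the floxed allele by an adenovirus that expresses Cre and GFP and sorting of GFP-positive cells. They name a virus with GFP alone as control and do not say whether the floxed lines sequenced here had received it. Each genotype had untreated and treated cells in a TGFβ experiment (2 ng/ml, 4 days) and in a Wnt3a experiment (100 ng/ml, 3 days), with 2 replicates in each of the 28 conditions, 56 samples in all. The labels do not say whether replicates were separate lines or cultures of 1 line, so p-values measure only the spread between these samples, and a genotype and a line cannot be told apart.

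Cells that divide pass through 2 linked waves of transcription. Before S phase, E2F factors switch on cyclin E, the proteins that load the MCM helicase at replication origins, the replication fork proteins and the enzymes of nucleotide synthesis. Before mitosis, the DREAM complex gives way to B-Myb and FoxM1, and genes for cyclin B, the mitotic kinases, the kinetochore and the spindle motors are transcribed through CHR and CCAAT elements. In epithelial cells TGFβ is known as a cytostatic signal that induces CDK inhibitors and represses Myc, a response which many carcinomas lose, whereas Wnt signaling through β-catenin is known to favor proliferation in many tissues. The members fall into an arm of 16 genes of G1/S and replication and an arm of 24 genes of G2 and mitosis. The first arm holds the cyclin E genes Ccne1 and Ccne2, the transcription factor gene E2f1, the licensing factors Cdc6 and Cdt1, the helicase subunits Mcm2 to Mcm7 with Gins2 and the clamp gene Pcna, the nucleotide synthesis genes Rrm2 and Tyms, and Uhrf1, which guides maintenance methylation. The second arm holds the cyclins Ccna2, Ccnb1 and Ccnb2 with Cdk1 and its activating phosphatase Cdc25c, the factors Foxm1 and Mybl2, the kinases Plk1, Aurka and Aurkb, the checkpoint genes Bub1 and Bub1b, the passenger protein gene Birc5, and Cdc20 and Ube2c of the anaphase-promoting complex. It also holds the kinetochore genes Cenpa, Cenpe and Cenpf, the motors Kif11, Kif20a and Kif23, the spindle factor Tpx2, and Top2a and Mki67 of chromosome structure and surface. In bulk RNA, fewer cycling cells and less RNA per cell cannot be told apart.

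Promoter sequences of 5 members are shown because they carry the elements that distinguish the arms, and because these genes differ in direction or in level between the conditions described here. RefSeq promoter windows of the GRCm38.p6 build were matched to 31 members by gene ID. Each ran from 250 bases before to 50 bases after an annotated start, that of the first window listed for the gene. For some members this start lay inside the annotated gene, among them E2f1, Mybl2, Cdc6, Aurka and the printed Mcm5. The Cdc6 window, for example, begins at base 98907901 and the gene at base 98907709. No window was matched for Ccna2, Ccne2, Cdc25c, Foxm1, Mcm4, Gins2, Aurkb, Kif20a and Tpx2. Capitals mark the letters searched on both strands. These were, for the CHR, TTTGAA and its less common variant form TTCGAA, for the binding site of NF-Y the letters CCAAT, and for E2F the words TTTGGCGC, TTTCCCGC, TTTGCCGC and TTTCGCGC, where a match on the other strand appears as its complement and neighboring E2F matches can overlap. Mcm5 and Mcm6 encode subunits of the replicative helicase, Ccnb2 encodes cyclin B2, Kif11 the motor that separates the spindle poles, and Cdc20 the activator of the anaphase-promoting complex.
Mcm5 (chr8:75109259-75109558, plus strand): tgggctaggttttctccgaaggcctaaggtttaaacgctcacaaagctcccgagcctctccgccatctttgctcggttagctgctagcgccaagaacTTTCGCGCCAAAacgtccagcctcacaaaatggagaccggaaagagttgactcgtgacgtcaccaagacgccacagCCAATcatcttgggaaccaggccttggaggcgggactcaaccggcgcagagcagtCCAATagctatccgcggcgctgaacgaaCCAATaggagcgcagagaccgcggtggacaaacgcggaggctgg
Mcm6 (chr1:128359656-128359955, minus strand): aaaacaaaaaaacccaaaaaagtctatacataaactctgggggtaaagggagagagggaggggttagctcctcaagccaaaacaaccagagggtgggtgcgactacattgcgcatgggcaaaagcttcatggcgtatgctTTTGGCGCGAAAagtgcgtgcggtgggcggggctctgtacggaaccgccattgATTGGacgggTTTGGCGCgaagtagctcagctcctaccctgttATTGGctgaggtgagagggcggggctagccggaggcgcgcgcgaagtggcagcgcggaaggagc
Ccnb2 (chr9:70421505-70421804, minus strand): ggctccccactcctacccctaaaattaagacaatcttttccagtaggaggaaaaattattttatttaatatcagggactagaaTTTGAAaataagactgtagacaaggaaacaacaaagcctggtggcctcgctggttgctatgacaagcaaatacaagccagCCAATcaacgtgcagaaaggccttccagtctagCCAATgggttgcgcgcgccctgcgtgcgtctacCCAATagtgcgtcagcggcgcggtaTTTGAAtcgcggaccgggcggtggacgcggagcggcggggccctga
Kif11 (chr19:37376132-37376431, plus strand): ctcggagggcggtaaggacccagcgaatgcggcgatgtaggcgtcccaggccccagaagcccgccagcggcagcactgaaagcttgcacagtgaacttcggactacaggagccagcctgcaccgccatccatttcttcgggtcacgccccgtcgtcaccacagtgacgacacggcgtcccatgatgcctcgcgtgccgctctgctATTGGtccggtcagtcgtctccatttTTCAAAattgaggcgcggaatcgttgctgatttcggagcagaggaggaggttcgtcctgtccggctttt
Cdc20 (chr4:118437294-118437593, minus strand): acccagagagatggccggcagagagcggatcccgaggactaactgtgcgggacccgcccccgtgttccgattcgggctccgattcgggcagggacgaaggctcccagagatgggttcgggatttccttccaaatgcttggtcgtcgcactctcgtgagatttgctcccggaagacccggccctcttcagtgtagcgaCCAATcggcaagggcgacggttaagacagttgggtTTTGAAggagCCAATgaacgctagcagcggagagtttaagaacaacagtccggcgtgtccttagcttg

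The CHR letters occurred in 14 of the 18 windows of the G2 and mitosis arm (77.8%) and in 2 of the 13 windows of the G1/S and replication arm (15.4%), against 19.4% of all 27025 windows of this length. The CCAAT letters occurred in 16 of the 18 and 8 of the 13 windows, against 37.9% of all windows. The E2F letters showed the opposite split, with 1 of 18 windows (5.56%) in the mitotic arm, that of Cdk1, and 6 of 13 (46.2%) in the replication arm, against 2.32% of all windows. A match describes letters in this window and is not a measured binding site.

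Levels are given in CPM, reads scaled to an effective library size of 1 M reads, and differences on the log2(CPM + 1) scale, which understates changes of genes with low values. A gene was called at an adjusted p of at most 0.05 (limma, Benjamini-Hochberg over the 13754 genes) and a log2 fold change of 1 or more in size. The samples held 22.4 to 33.7 M assigned reads (median 26.8 M), so that 3 reads, the lower limit of detection by counting error alone, were 0.0917 to 0.146 CPM. The lowest value of any member in any sample rested on 7 reads (Ccne2). Summed over 6 epithelial markers, the samples held 1185 to 8284 CPM, and over 5 immune markers 1.27 to 533 CPM, the highest in dm/fl cells and there mainly from Csf1r, while the T cell marker Cd3e never exceeded 3 reads. The 7 fibroblast markers summed to 5.58 to 779 CPM. In dm/fl -Wnt3a and dm/- +Wnt3a the 2 replicates differed over all genes with an SD of the log2 difference above 1, and the Wnt3a responses and the untreated comparison of dm cells in that experiment are also given without 1 of their samples. The treatments were visible in known targets, as the TGFβ target Smad7 rose in 6 of the 7 genotypes, ΔC/fl being the exception (mean log2 fold change 1.32, SE 0.12, adjusted p = 2e-10), and the Wnt target Axin2 rose in 6 of the 7, at 0.252 and 0.652 CPM without and 121 and 51.00 CPM with Wnt3a in fl/fl cells but 0 and 0.0791 CPM with Wnt3a in dm/- cells.

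Before any cytokine, the members already differed widely between genotypes and between replicates. Averaged over the 40 members, untreated cells of the TGFβ experiment ranged from 3.77 ± 0.67 (mean log2(CPM + 1) ± SD, n = 2) in ΔC/- to 7.05 ± 0.047 in D164A/-. The untreated cells of the Wnt3a experiment had a narrower range, from 6.06 ± 1.67 in ΔC/- to 7.18 ± 0.29 in fl/fl. Untreated cells of 1 genotype differed between the experiments, since ΔC/- cells were 2.29 lower and ΔC/fl cells 1.79 lower in the TGFβ than in the Wnt3a experiment, while D164A/- cells differed by only -0.039. The pooled SD between replicates was 0.69 in the TGFβ and 0.70 in the Wnt3a experiment, which is larger than 4 of the 7 mean TGFβ differences and all 7 mean Wnt3a differences given below. The widest gaps between replicates were 2.56 in ΔC/- +Wnt3a, 2.36 in ΔC/- -Wnt3a and 1.98 in ΔC/fl -TGFβ, and in each of these 40 of 40 members were higher in replicate 2. For a single response the SE of a member was 0.76 at the median (0.45 to 1.19), against 0.37 over all genes tested.

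**Figure D1:**
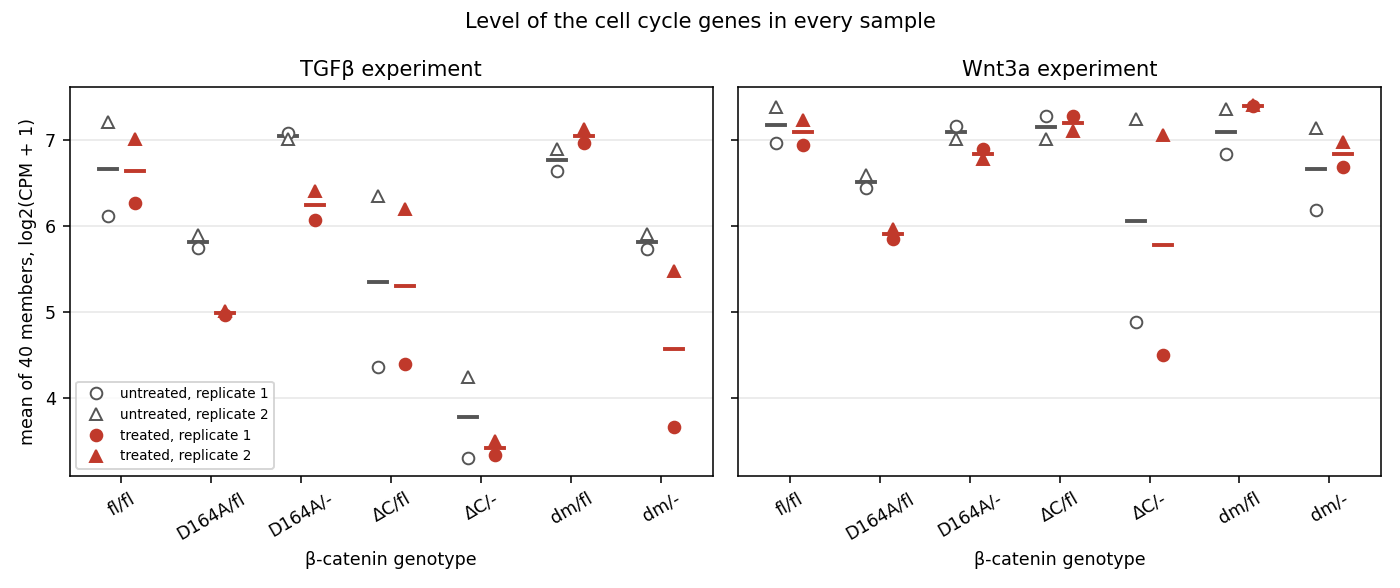
Mean level of the 40 members in each of the 56 samples, as log2(CPM + 1), with the TGFβ experiment on the left and the Wnt3a experiment on the right. Open grey symbols are untreated and filled red symbols treated samples, circles are replicate 1, triangles replicate 2 and bars the mean of 2, and the replicates of ΔC/- cells in the Wnt3a experiment lie 2.36 and 2.56 apart.

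TGFβ was followed by lower values of nearly every member when the 7 genotypes were averaged, but few members passed the test. The mean response was below 0 for 39 of 40 members, with a median of -0.43 against -0.023 over all genes. Kif11 fell (log2 fold change -1.02, SE 0.36, adjusted p = 0.034), 1 of 40 members beside 4.88% of all genes in either direction and 2.2% called lower. With edgeR on the recovered reads no member was called in this comparison, beside 1289 of all 13754 genes, with an adjusted p of 0.042 for Kif11. At an adjusted p of at most 0.05 alone 4 members were lower, Kif11, the survivin gene Birc5 (-0.88, SE 0.27, adjusted p = 0.012), the phosphatase gene Cdc25c (-0.70, SE 0.24, adjusted p = 0.026) and the spindle assembly factor Tpx2 (-0.61, SE 0.18, adjusted p = 0.0098). At an unadjusted p under 0.05, 13 members were lower and 0 higher, a share of 32.5% beside 19.1% of all genes that were lower at this limit. Leaving out 1 of the 28 samples moved the count called between 0 and 4. It was 0 without any of 13 of the samples, and at most 4, without treated replicate 2 of ΔC/fl or treated replicate 2 of dm/-.

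The mean responses were lower in the mitotic than in the replication arm. The median was -0.56 over the 24 genes of G2 and mitosis and -0.22 over the 16 genes of G1/S and replication. Mki67, the gene of the proliferation marker Ki-67, had the largest decrease, -1.08 (SE 0.45, adjusted p = 0.07), followed by Kif11 and by the kinetochore gene Cenpf, -0.96 (SE 0.44, adjusted p = 0.1). Top2a, the topoisomerase that untangles chromosomes, was at -0.79 (SE 0.35, adjusted p = 0.089), and Ccnb1, the cyclin of mitotic entry, at -0.56 (SE 0.26, adjusted p = 0.11). None of these other than Kif11 was called. The mitotic regulators Cdc20 at -0.43 (SE 0.31, adjusted p = 0.34), Plk1 at -0.43 (SE 0.38, adjusted p = 0.46) and Cdk1 at -0.28 (SE 0.24, adjusted p = 0.44) had smaller mean responses.

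In the replication arm the mean responses were closer to 0. The ribonucleotide reductase subunit Rrm2 was at -0.30 (SE 0.31, adjusted p = 0.54), the helicase loader Cdc6 at -0.30 (SE 0.40, adjusted p = 0.65), the sliding clamp Pcna at -0.23 (SE 0.17, adjusted p = 0.37), the transcription factor E2f1 at -0.18 (SE 0.28, adjusted p = 0.7) and the helicase subunit Mcm2 at -0.085 (SE 0.27, adjusted p = 0.87). Gins2 and Mcm6 lay nearest to 0, at -0.0033 (SE 0.30, adjusted p = 1) and -0.019 (SE 0.33, adjusted p = 0.98). Ccne1, the gene of cyclin E1, was the only member above 0, at 0.57 (SE 0.29, adjusted p = 0.15), and its 2 treated samples lay above both untreated ones in D164A/fl, ΔC/- and dm/fl cells but below them in D164A/- cells.

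**Figure D2:**
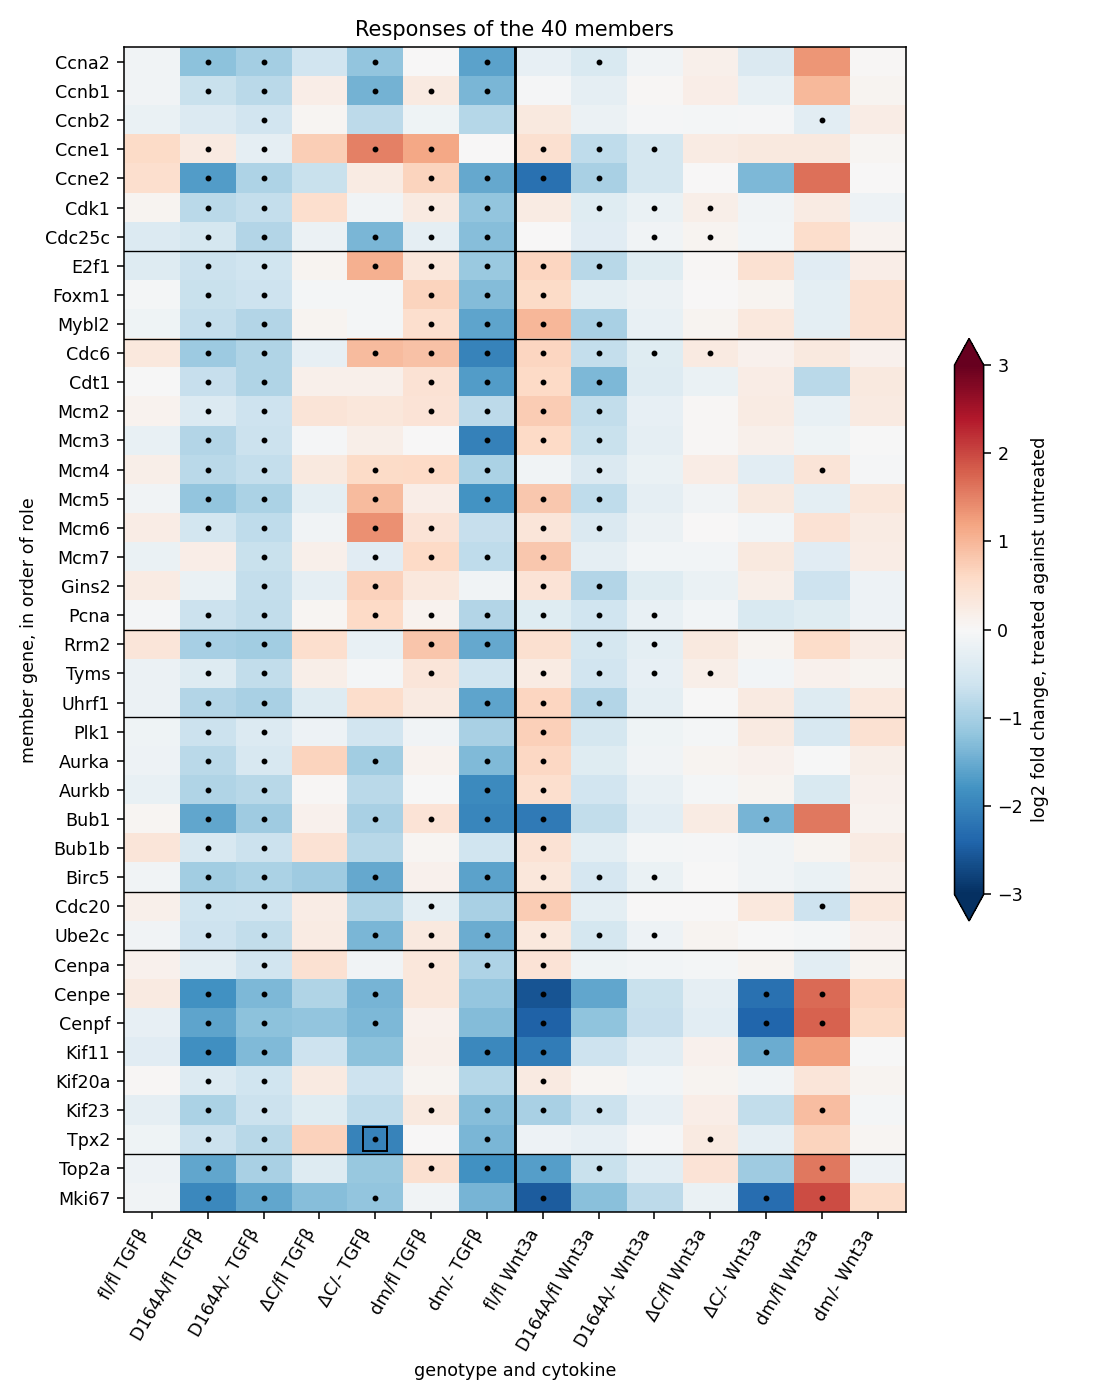
Log2 fold changes (color) of the 40 members, in rows and grouped by role, for TGFβ in the left 7 columns and Wnt3a in the right 7 columns. Dots mark members whose 2 treated samples both lie above or both below the 2 untreated samples, the square marks the 1 member called in a single genotype (Tpx2 in ΔC/- cells with TGFβ), and the D164A/- TGFβ column has a dot in all 40 rows.

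Both D164A lines had lower values of the program with TGFβ, although no single member was called. In D164A/fl cells the mean member level was 5.82 ± 0.099 without and 4.99 ± 0.029 with TGFβ, a difference of -0.83. D164A/- cells went from 7.05 ± 0.047 to 6.24 ± 0.24, a difference of -0.81. In D164A/- cells all 40 members were lower in both treated than in both untreated samples, beside 28.2% of all genes, and 0 were higher (all genes 28.4%). In D164A/fl cells 35 members were lower without overlap (all genes 27.9%) and 1, Ccne1, was higher (all genes 35.4%). The limma test called 0 of 40 in either line, beside 3.38% of all genes in D164A/fl and 4.06% in D164A/- cells, with 0 at an unadjusted p under 0.05 and 0 by edgeR. The medians were -0.71 in D164A/fl and -0.76 in D164A/- cells, and all genes had medians of 0.029 and 0.

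All 8 roles had negative medians in both lines. Mki67 was at 126 and 192 CPM without and 44.3 and 36.2 CPM with TGFβ in D164A/fl cells (log2 fold change -1.93, SE 1.19, adjusted p = 0.53) and at 1102 and 897 CPM without and 265 and 423 CPM with TGFβ in D164A/- cells (log2 fold change -1.57, SE 1.19, adjusted p = 0.82). Kif11 was at 55.2 and 58.99 CPM without and 16.1 and 14.3 CPM with TGFβ in D164A/fl cells and at 263 and 224 CPM without and 81.2 and 115 CPM with TGFβ in D164A/- cells. In the replication arm Mcm6 was at 222 and 180.4 CPM without and 149 and 123 CPM with TGFβ in D164A/fl cells. Treated and untreated samples of these 3 genes do not overlap in either line. Over the roles, medians in D164A/- cells ran from -0.62 for the transcription factors E2f1, Foxm1 and Mybl2 to -1.26 for the pair Top2a and Mki67. Spearman's rho between the members' response and transcript GC content was 0.55 in D164A/fl and 0.54 in D164A/- cells. Over 9381 genes that averaged 10 CPM or more it was 0.42 and 0.34. After removal of the GC trend it was 0.16 and -0.058 over the members, and their medians were -0.88 and -0.74. The part of GC content in the order of the roles was not tested. A fit on only the 4 samples compared called 7 members lower in D164A/fl cells, beside 446 of all 13754 genes called in either direction. It called 0 members in D164A/- cells.

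The lowest values relative to untreated cells were those of dm/- cells, and they rested largely on 1 sample. The mean member level was 5.82 ± 0.13 without and 4.57 ± 1.28 with TGFβ, and the treated replicates stood at 3.66 and 5.47. The median of the 40 members was -1.30, with 39 below 0, and leaving out each sample in turn moved it between -2.27 and -0.39. Both treated samples were below both untreated ones for 28 of 40 members, beside 28.4% of all genes, and above them for 0 (all genes 29.1%). No member was called by limma or edgeR (all genes 6.12%), and 6 were lower at an unadjusted p under 0.05, beside 8.2% of all genes. These 6 were Mcm3, Cdt1, Tpx2, Aurkb, Birc5 and Ube2c. Mcm3, a helicase subunit, was at 195 and 237 CPM without and 32.3 and 82.3 CPM with TGFβ (log2 fold change -2.04, SE 0.70, adjusted p = 0.072). Cdt1, which loads the helicase together with Cdc6, was at 80.3 and 57.1 CPM without and 20.4 and 20.8 CPM with TGFβ (log2 fold change -1.67, SE 0.58, adjusted p = 0.079). Mki67 shows how far the treated replicates parted, with 144 and 135 CPM without and 15.98 and 166 CPM with TGFβ. Removing the GC trend from the values led to 3 members called lower, beside 1114 of all 13754 genes called in either direction. A fit that paired samples of the same replicate number called 17 members lower, beside 1382 of all genes. With the GC trend removed as well it called 25 lower, beside 1515 of all genes. The labels do not say that replicate numbers pair the samples.

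Cells of genotype dm/fl went the other way. Their mean member level was 6.77 ± 0.18 without and 7.05 ± 0.12 with TGFβ, a difference of 0.28. The median of the members was 0.28 with 34 of 40 above 0, and all 16 genes of the G1/S and replication arm were above 0. For 21 members both treated samples were higher than both untreated ones (all genes 31.1%) and for 2 members, Cdc20 and Cdc25c, they were lower (all genes 34%). The limma test and edgeR called 0 of 40 members, beside 10.3% of all genes, and 0 reached an unadjusted p under 0.05. Ccne1 had the largest value, at 13.7 and 17.5 CPM without and 34.1 and 37.1 CPM with TGFβ (log2 fold change 1.15, SE 0.76, adjusted p = 0.48). Cdc6 was at 31.5 and 49.6 CPM without and 68.6 and 78.6 CPM with TGFβ, and Rrm2 at 169 and 193 CPM without and 303 and 338 CPM with TGFβ. Treated and untreated samples were apart for all 3 genes, while Mki67 overlapped at 849 and 846 CPM without and 691 and 890.1 CPM with TGFβ.

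In ΔC/- cells the arms had opposite median responses. Over the 16 genes of G1/S and replication the median with TGFβ was 0.55, with 13 above 0, whereas over the 24 genes of G2 and mitosis it was -1.01, with 0 above 0. The arm means were 3.88 ± 0.29 without and 4.41 ± 0.23 with TGFβ for G1/S, and 3.70 ± 0.92 without and 2.75 ± 0.029 with TGFβ for mitosis. Treated samples were lower without overlap for 12 members (all genes 29.9%) and higher for 8 (all genes 27.4%). Tpx2 fell and was the 1 member called, from 55.1 and 93.3 to 17.98 and 16.1 CPM (log2 fold change -2.01, SE 0.48, adjusted p = 0.0049, and adjusted p = 0.0064 with edgeR), beside 6.55% of all genes called and 3.69% called lower. This call was lost without untreated replicate 2 or without treated replicate 2. In edgeR 2 members were called lower, Tpx2 and Cdc25c (adjusted p = 0.032), beside 853 of all 13754 genes called in either direction. At an unadjusted p under 0.05 in limma 5 were lower, beside 11% of all genes. A fit on the 4 samples compared called 0 members, beside 656 of all genes. A fit on the TGFβ experiment alone called 1 lower and 1 higher, beside 1375 of all genes.

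The members of the replication arm in ΔC/- cells started from low levels. Mcm6 was at 8.27 and 17.7 CPM without and 28.1 and 38.7 CPM with TGFβ (log2 fold change 1.37, SE 0.87, adjusted p = 0.45) and Mcm5 at 5.63 and 12.4 CPM without and 13.6 and 21.5 CPM with TGFβ (log2 fold change 0.94, SE 1.01, adjusted p = 0.76), both with E2F letters in the windows printed above. Ccne1 was at 5.67 and 7.58 CPM without and 16.6 and 25.4 CPM with TGFβ (log2 fold change 1.51, SE 0.76, adjusted p = 0.28) and E2f1 at 15.5 and 17.2 CPM without and 27.3 and 46.1 CPM with TGFβ (log2 fold change 1.08, SE 0.73, adjusted p = 0.5). In each of these 4 genes the treated samples lay above the untreated ones, although none was called. Cdc6 was at 0.543 and 2.61 CPM without and 3.63 and 3.52 CPM with TGFβ (log2 fold change 0.95, SE 1.05, adjusted p = 0.78) and Pcna at 31.6 and 31.8 CPM without and 45.5 and 50.96 CPM with TGFβ (log2 fold change 0.59, SE 0.45, adjusted p = 0.59). Mcm2 overlapped at 38.2 and 44.6 CPM without and 41.4 and 66.1 CPM with TGFβ (log2 fold change 0.34, SE 0.71, adjusted p = 0.93), as did Rrm2 at 15.1 and 21.8 CPM without and 16.01 and 14.6 CPM with TGFβ (log2 fold change -0.23, SE 0.82, adjusted p = 0.99).

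The mitotic genes of the same cells were lower, with the untreated replicates far apart. Ccnb1 was at 2.83 and 8.94 CPM without and 1.47 and 1.19 CPM with TGFβ (log2 fold change -1.41, SE 0.68, adjusted p = 0.24) and Mki67 at 11.6 and 38.2 CPM without and 9.99 and 7.66 CPM with TGFβ (log2 fold change -1.19, SE 1.19, adjusted p = 0.73), and both were without overlap. Treated and untreated samples overlapped for Cdc20, at 4.31 and 12.5 CPM without and 2.59 and 4.74 CPM with TGFβ (log2 fold change -0.90, SE 0.81, adjusted p = 0.68), for Plk1, at 2.91 and 9.57 CPM without and 2.70 and 4.03 CPM with TGFβ (log2 fold change -0.58, SE 1.00, adjusted p = 0.9), and for Top2a, at 30.8 and 83.1 CPM without and 30.9 and 16.6 CPM with TGFβ (log2 fold change -1.13, SE 0.93, adjusted p = 0.63). Cdk1, which is needed for mitotic entry, was at 31.9 and 59.6 CPM without and 38.9 and 41.9 CPM with TGFβ (log2 fold change -0.11, SE 0.64, adjusted p = 1). The CHR letters of the windows printed for Ccnb2, Kif11 and Cdc20 belong to genes with responses of -0.77, -1.23 and -0.90. Ccnb2 overlapped, at 2.25 and 11.2 CPM without and 2.43 and 2.96 CPM with TGFβ. Among the other windows with CHR letters were those of Cdk1, with 2 matches and a response of -0.11, and of Mcm2, whose response was positive. All 24 members of the mitotic arm were below 0, with or without such letters in a window. Whether responses went with the letters of the windows was not tested.

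**Figure D3:**
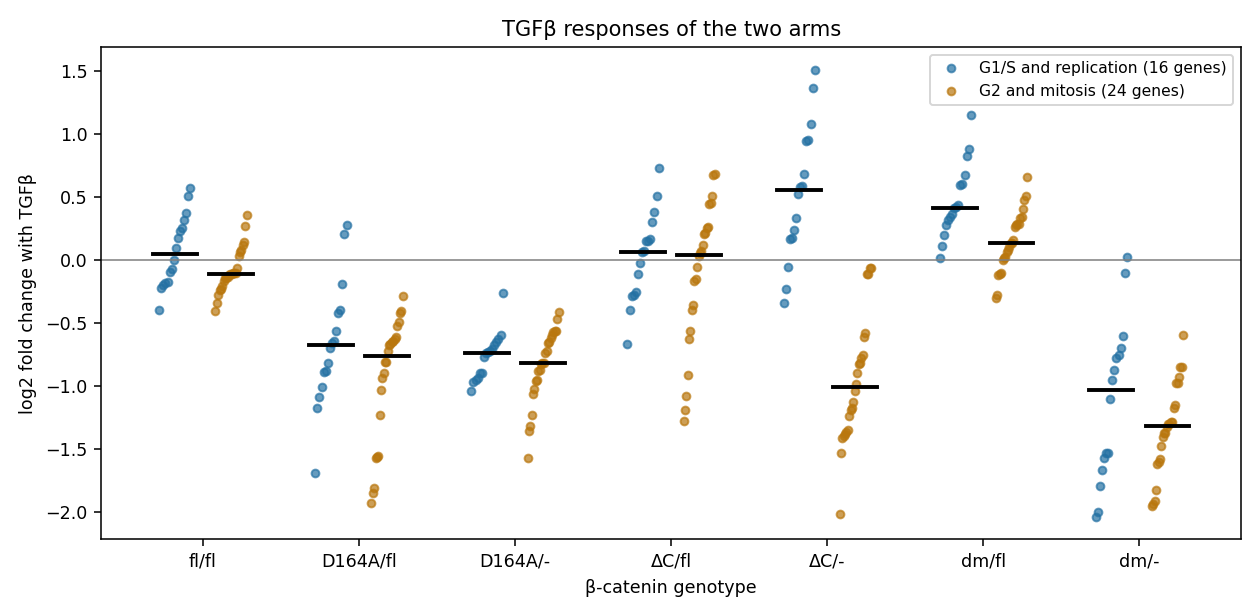
Log2 fold changes with TGFβ of the 16 members of G1/S and replication (blue) and the 24 members of G2 and mitosis (ochre) in each genotype. Points are genes, sorted by value, and bars are medians, which lie at 0.55 and -1.01 in ΔC/- cells.

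In fl/fl and ΔC/fl cells the members' differences with TGFβ lay within the replicate gaps. The mean member level in fl/fl cells was 6.66 ± 0.77 without and 6.64 ± 0.52 with TGFβ, and in ΔC/fl cells 5.35 ± 1.40 without and 5.30 ± 1.28 with TGFβ. Not 1 member was free of overlap in either line, beside 25.7% and 20.8% of all genes lower and higher in fl/fl cells and 25.2% and 28.5% in ΔC/fl cells. With limma 0 members were called (all genes 6.25% in fl/fl and 7.74% in ΔC/fl cells), 0 at an unadjusted p under 0.05 and 0 by edgeR. The medians were -0.10 and 0.057, and with each sample left out in turn they ranged from -0.60 to 0.47 in fl/fl and from -0.96 to 0.96 in ΔC/fl cells. Mki67 was at 166 and 523 CPM without and 194 and 386 CPM with TGFβ in fl/fl cells, where replicate 2 was the higher one with and without TGFβ. Between samples of the same replicate number, treated minus untreated levels were 0.16 and -0.20 in fl/fl cells and 0.032 and -0.15 in ΔC/fl cells, so the direction differed between the numbers in both lines.

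**Figure D4:**
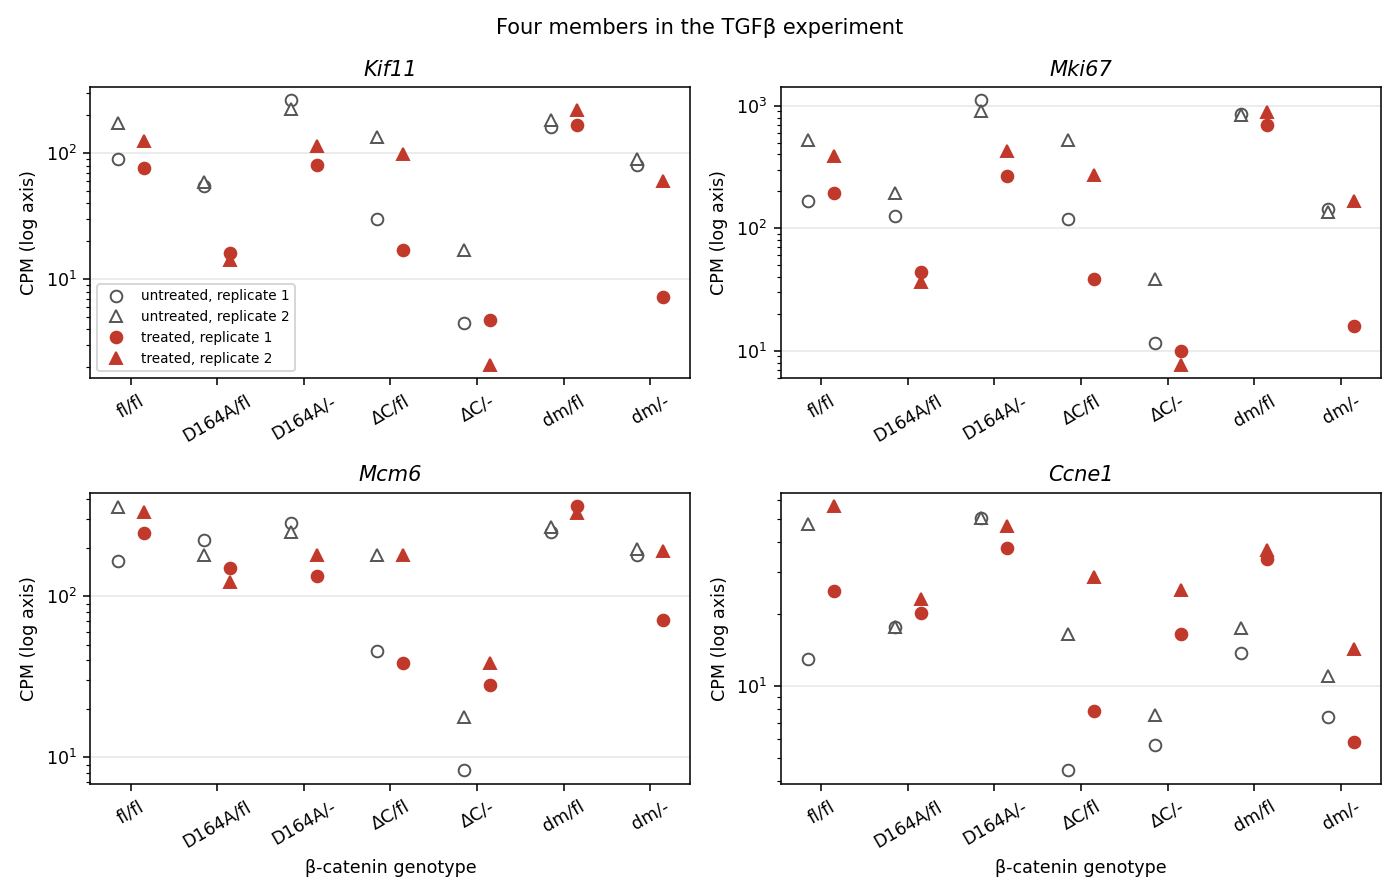
CPM on a log axis of Kif11, Mki67, Mcm6 and Ccne1 in the TGFβ experiment, with open grey symbols for untreated and filled red symbols for treated samples, circles for replicate 1 and triangles for replicate 2. Kif11 is lower in both treated samples of D164A/fl, D164A/- and dm/- cells, while Mcm6 and Ccne1 are higher in both treated samples of ΔC/- cells.

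The test of whether a genotype's TGFβ response differed from that of fl/fl cells called 0 of 40 members in each of the 6 mutant genotypes with limma and with edgeR. Beside this, 3.81% of all genes were called for D164A/fl, 4.28% for D164A/-, 2.69% for ΔC/fl, 2.01% for ΔC/-, 4.04% for dm/fl and 2.78% for dm/- cells. At an unadjusted p under 0.05 the count was 1 (Tpx2, lower in ΔC/- cells, log2 fold change -1.89, SE 0.68, adjusted p = 0.2, beside 4.97% of all genes lower at this limit) and 0 in the other 5. All 6 comparisons share the fl/fl samples. The median differences of the members were -0.67 for D164A/fl, -0.77 for D164A/-, 0.13 for ΔC/fl, -0.46 for ΔC/-, 0.27 for dm/fl and -1.24 for dm/- cells, with an SE of a single member of 1.07 at the median.

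With Wnt3a no member was called higher or lower, in single genotypes or on average. The limma test called 0 of 40 in each of the 7 genotypes, as did edgeR, while 0.378% of all genes were called in fl/fl, 4.15% in D164A/fl, 0.654% in D164A/-, 0.225% in ΔC/fl, 0.0509% in ΔC/-, 0.574% in dm/fl and 0% in dm/- cells. At an unadjusted p under 0.05, 5 members were lower in fl/fl cells (all genes 10.3%), 1 in D164A/fl (all genes 5.07%) and 1 in ΔC/- cells (all genes 2.19%), 0 were lower in the other 4 genotypes, and 0 were higher in any. Over the 7 genotypes the mean response had a median of -0.017 over the members, with 17 above 0, and -0.0045 over all genes, and 0 members were called by either tool (all genes 0.494%) or reached an unadjusted p under 0.05. The largest mean increases were those of Rrm2 at 0.11 (SE 0.31, adjusted p = 1), Ccnb1 at 0.11 (SE 0.26, adjusted p = 1) and Kif20a, a motor of cell division, at 0.10 (SE 0.27, adjusted p = 1). The largest mean decreases were those of the kinetochore genes Cenpe at -0.72 (SE 0.42, adjusted p = 0.63) and Cenpf at -0.67 (SE 0.44, adjusted p = 0.69), and of Mki67 at -0.64 (SE 0.45, adjusted p = 0.74).

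D164A/fl cells had lower values of the members with Wnt3a. Their mean member level was 6.51 ± 0.11 without and 5.91 ± 0.081 with Wnt3a, a difference of -0.61, and the median of the members was -0.58 with 39 of 40 below 0. For 22 members both treated samples were below both untreated ones (all genes 19.6%), and for 0 they were above (all genes 20.6%). Cdt1 was at 38.1 and 81.5 CPM without and 18.8 and 24.1 CPM with Wnt3a (log2 fold change -1.35, SE 0.58, adjusted p = 0.27), Mcm5 at 124 and 248 CPM without and 90.2 and 118 CPM with Wnt3a and E2f1 at 56.3 and 73.99 CPM without and 32.5 and 39.5 CPM with Wnt3a. The replication arm had a median of -0.73 and the mitotic arm of -0.48. After removal of the GC trend 1 member was called lower, beside 703 of all 13754 genes called in either direction. In D164A/- cells the mean level was 7.09 ± 0.11 without and 6.84 ± 0.078 with Wnt3a and the median was -0.22, with 38 of 40 below 0, 9 members lower without overlap (all genes 9.23%) and 0 higher (all genes 10.4%).

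In fl/fl, ΔC/- and dm/fl cells the Wnt3a responses of the members followed the GC content of their transcripts. Across the 40 members, Spearman's rho between the response and the transcript GC content was 0.83 in fl/fl, 0.87 in ΔC/- and -0.81 in dm/fl cells, where the points share the same 4 libraries. Over the 9381 genes that averaged 10 CPM or more it was 0.81, 0.84 and -0.82, so the same relation was present outside the members. The 8 members with the lowest GC content, Ccne2, Bub1, Kif11, Cenpf, Top2a, Ccnb1, Cenpe and Pcna (35.1% to 45.3%), had a median response of -2.12 in fl/fl cells, against 0.45 for the other 32 (45.5% to 58.8%). In ΔC/- cells these medians were -1.37 and 0.085, and in dm/fl cells 1.58 and -0.095. After removal of the GC trend, rho over the members was 0.15, 0.11 and -0.19, and the medians of the 8 and the 32 members were -0.76 and 0.27 in fl/fl, -0.47 and -0.018 in ΔC/- and 0.36 and 0.083 in dm/fl cells.

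Single genes show the pattern. Cenpe was at 30.8 and 185 CPM without and 7.07 and 18.98 CPM with Wnt3a in fl/fl cells (log2 fold change -2.60, SE 1.12, adjusted p = 0.29), and Mki67 at 205 and 1096 CPM without and 50.2 and 139.7 CPM with Wnt3a (log2 fold change -2.49, SE 1.19, adjusted p = 0.35). Both genes stood highest in untreated replicate 2, and the 5 members at an unadjusted p under 0.05 were these and Cenpf, Bub1 and Kif11. Mcm5, with a GC content of 54.6%, was at 213 and 262 CPM without and 523 and 324 CPM with Wnt3a and Cdc20, with 55.6%, at 75.3 and 96.2 CPM without and 173 and 123 CPM with Wnt3a, and their treated samples were the higher ones. Treated samples were lower without overlap for 9 members in fl/fl cells (all genes 20.6%) and higher for 23 (all genes 28.6%). In dm/fl cells Mki67 was at 77.2 and 562 CPM without and 1144 and 579 CPM with Wnt3a, and there 2 members were lower (all genes 10.2%) and 6 higher without overlap (all genes 8.89%). Untreated dm/fl cells are among the conditions whose replicates stood apart, and without replicate 2 of these untreated cells 5 members were called higher (all genes 21.4%) and 1 lower (all genes 21.3%). Both shares of the members, 12.5% and 2.5%, were below those of all genes. In ΔC/- cells the counts were 5 lower (all genes 13.4%) and 0 higher (all genes 8.33%).

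**Figure D5:**
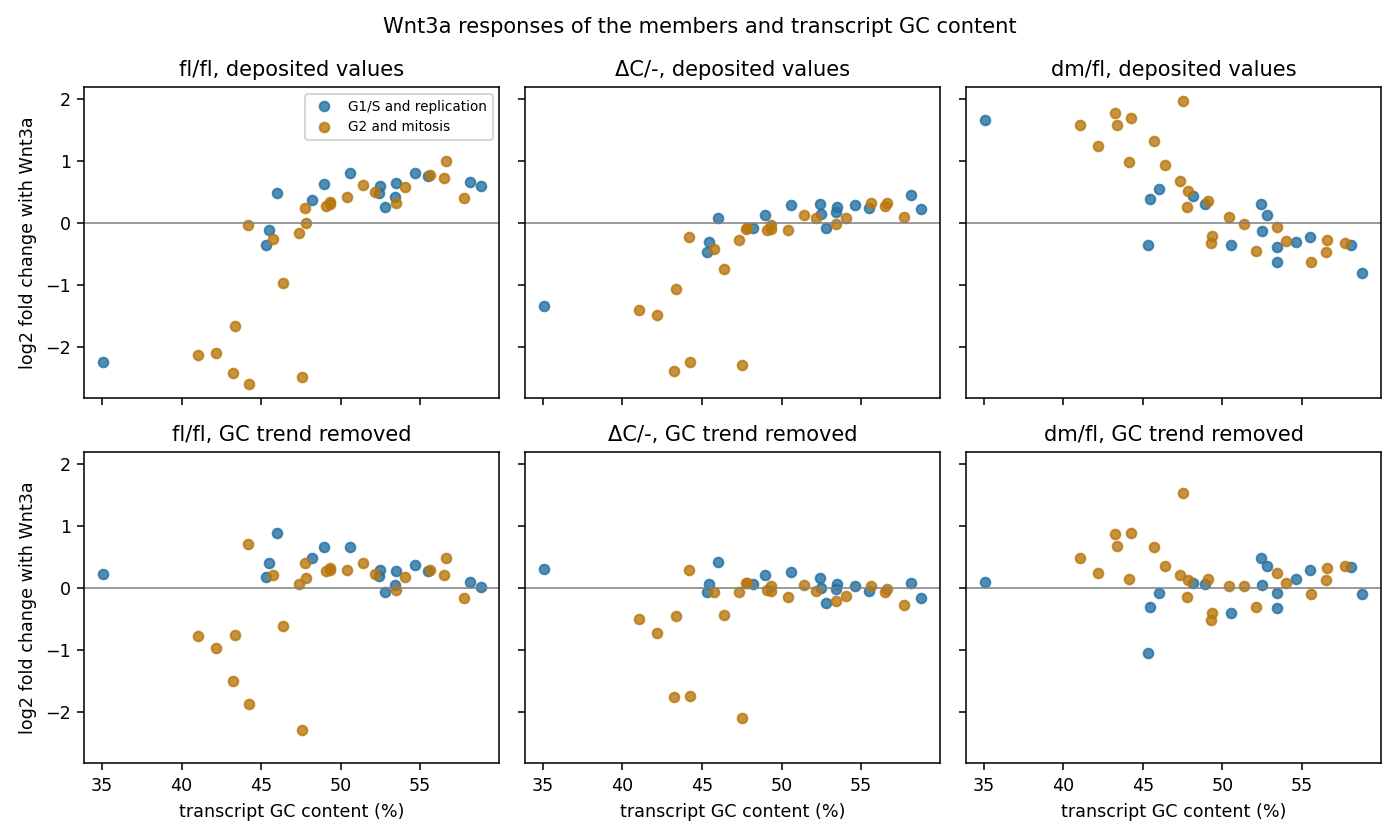
Wnt3a response (log2 fold change) of each of the 40 members against the GC content of its transcripts in percent, in fl/fl, ΔC/- and dm/fl cells, from the deposited values (top) and after removal of the GC trend (bottom). Blue points are members of G1/S and replication and ochre points members of G2 and mitosis, and Spearman's rho falls from 0.83 to 0.15 in fl/fl cells.

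In ΔC/fl and dm/- cells the members' median Wnt3a responses were close to 0. In ΔC/fl cells the mean member level was 7.15 ± 0.19 without and 7.19 ± 0.12 with Wnt3a, with a median of 0.031, 0 members lower (all genes 8.89%) and 5 higher without overlap (all genes 8.86%). In dm/- cells, in which Axin2 was at or near 0 with and without Wnt3a, the level was 6.66 ± 0.68 without and 6.83 ± 0.21 with Wnt3a, the median was 0.14, and 0 members were free of overlap (all genes 4.51% lower and 2.41% higher). This median rested on single samples, as it was -0.18 without treated replicate 2, 0.49 without treated replicate 1, 0.67 without untreated replicate 2 and -0.32 without untreated replicate 1. The test of the difference from the fl/fl response called 0 members in all 6 genotypes with limma and edgeR, beside 2.12% of all genes in D164A/fl, 0.24% in D164A/-, 0.0218% in ΔC/fl, 0.0291% in ΔC/-, 0.145% in dm/fl and 0.0727% in dm/- cells. At an unadjusted p under 0.05, 7 members were higher in dm/fl (all genes 18%), 1 was higher in dm/- (all genes 2.49%) and 1 was lower in D164A/fl cells (all genes 5.14%), and 0 passed in the other 3. The 7 were Mki67, Cenpe, Cenpf, Bub1, Ccne2, Kif11 and Top2a, of which 6 are among the 8 with the lowest GC content. Without untreated replicate 2 of dm/fl cells 11 members (27.5%) were called in this comparison, beside 51% of all genes, and without treated replicate 2 of fl/fl cells 5 (12.5%), beside 18.4%, so that both shares were below that of all genes.

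Larger differences of the members were found between untreated lines. In the TGFβ experiment, 5 members were higher in D164A/- than in D164A/fl cells (16.5% of all genes called, 8.06% called higher), and the median of the members was 1.45, with 37 of 40 above 0 (all genes 0). The 5 belong to the mitotic arm, Ccnb2 (log2 fold change 2.44, SE 0.76, adjusted p = 0.017), which was at 12.6 and 20.7 CPM in D164A/fl and at 90.1 and 95.3 CPM in D164A/- cells, Kif20a (2.26), Cdc25c (2.03), Ccnb1 and Tpx2 (1.60). The mitotic arm had a median of 1.64 and the replication arm of 0.60. EdgeR called 6 members higher, and its share over all genes is not given here. The count was 2 without D164A/fl replicate 2 (all genes 14.3%) and 0 without any other of the 4 samples. In the Wnt3a experiment the median was 0.55 with 39 of 40 above 0, and limma and edgeR called 0 members, with 0 at an unadjusted p under 0.05 (all genes called 3.21%).

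The preset mitotic members were higher in both D164A/- samples, and values are given for D164A/fl against D164A/- cells. Ccnb1 was at 19.8 and 19.7 CPM in untreated D164A/fl and at 94.1 and 64.6 CPM in untreated D164A/- cells (log2 fold change 1.93, SE 0.68, adjusted p = 0.037). Mki67 was at 126 and 192 against 1102 and 897 CPM (log2 fold change 2.67, SE 1.19, adjusted p = 0.11), and Top2a at 322 and 356 against 945 and 901 CPM (log2 fold change 1.44, SE 0.93, adjusted p = 0.32). Cdc20 was at 31.2 and 37.2 against 105 and 93.5 CPM (log2 fold change 1.51, SE 0.81, adjusted p = 0.21), Plk1 at 27.9 and 36.1 against 81.5 and 81.7 CPM (log2 fold change 1.33, SE 1.00, adjusted p = 0.41) and Cdk1 at 141 and 139 against 387 and 340.4 CPM (log2 fold change 1.37, SE 0.64, adjusted p = 0.14). Of these 6, Ccnb1 was called.

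Of the preset replication members, 5 were higher and E2f1 was lower in both D164A/- samples. Ccne1 was at 17.8 and 17.6 CPM in D164A/fl and 50.7 and 50.7 CPM in D164A/- cells (log2 fold change 1.47, SE 0.76, adjusted p = 0.19), Rrm2 at 121 and 110.1 against 279.6 and 249 CPM (log2 fold change 1.19, SE 0.82, adjusted p = 0.36), and Cdc6 at 50.2 and 37.5 against 59.8 and 62.1 CPM (log2 fold change 0.48, SE 1.05, adjusted p = 0.85). Mcm2 was at 131 and 123 against 141 and 142 CPM (log2 fold change 0.16, SE 0.71, adjusted p = 0.95) and Pcna at 107 and 93.7 against 155 and 146 CPM (log2 fold change 0.59, SE 0.45, adjusted p = 0.43). E2f1 was at 62.9 and 58.00 against 40.3 and 43.4 CPM (log2 fold change -0.52, SE 0.73, adjusted p = 0.73). None of these 6 was called.

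The direction was the reverse in ΔC cells. Of the 40 members, 6 were lower in untreated ΔC/- than in untreated ΔC/fl cells of the TGFβ experiment (12% of all genes called, 6.69% called lower), and the median of the members was -1.68 (all genes 0.016). They were Mki67, Mcm6 (log2 fold change -2.80, SE 0.87, adjusted p = 0.023), Kif11 (-2.71), Ccnb2 (-2.41), Kif20a (-2.22) and Ccnb1. EdgeR called 14 members lower, beside 1877 of all 13754 genes called in either direction. The count depended on single samples, as it was 15 without ΔC/fl replicate 1, whose members were low (all genes 5.08% called lower), and 0 without ΔC/fl replicate 2 or without ΔC/- replicate 1. In the Wnt3a experiment the median was -0.96 with 40 of 40 below 0, limma and edgeR called 0 members, and 4 (10.0%) were lower at an unadjusted p under 0.05, beside 10.3% of all genes (8.16% called). Without ΔC/- replicate 2, whose members were high, 18 were called lower (all genes 7.25%).

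Among the mitotic members, Mki67 was at 118 and 524 CPM in untreated ΔC/fl and 11.6 and 38.2 CPM in untreated ΔC/- cells (log2 fold change -3.49, SE 1.19, adjusted p = 0.039) and Ccnb1 at 11.6 and 43.4 against 2.83 and 8.94 CPM (log2 fold change -1.94, SE 0.68, adjusted p = 0.045). Top2a was at 127 and 512 against 30.8 and 83.1 CPM (log2 fold change -2.31, SE 0.93, adjusted p = 0.088), Cdc20 at 12.99 and 69.99 against 4.31 and 12.5 CPM (log2 fold change -1.90, SE 0.81, adjusted p = 0.11) and Plk1 at 13.4 and 91.7 against 2.91 and 9.57 CPM (log2 fold change -2.50, SE 1.00, adjusted p = 0.087). Both ΔC/- samples lay below both ΔC/fl samples for these 5 genes. Cdk1 overlapped, at 51.7 and 201 against 31.9 and 59.6 CPM (log2 fold change -1.21, SE 0.64, adjusted p = 0.23).

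Of the 16 members of G1/S and replication, 8 overlapped between these lines, and for the other 8 both ΔC/- samples were the lower ones (all genes 32.7%). Mcm2 was at 33.4 and 131 CPM in ΔC/fl and 38.2 and 44.6 CPM in ΔC/- cells (log2 fold change -0.67, SE 0.71, adjusted p = 0.64), E2f1 at 12.7 and 34.03 against 15.5 and 17.2 CPM (log2 fold change -0.34, SE 0.73, adjusted p = 0.86), Ccne1 at 4.44 and 16.6 against 5.67 and 7.58 CPM (log2 fold change -0.37, SE 0.76, adjusted p = 0.85), and Rrm2 at 13.7 and 68.5 against 15.1 and 21.8 CPM (log2 fold change -0.74, SE 0.82, adjusted p = 0.66). Pcna was at 32.98 and 77.6 against 31.6 and 31.8 CPM (log2 fold change -0.66, SE 0.45, adjusted p = 0.4) and Cdc6 at 3.92 and 25.2 against 0.543 and 2.61 CPM (log2 fold change -2.27, SE 1.05, adjusted p = 0.15), and for these last genes both ΔC/- samples were the lower ones. Mcm6, the called member of this arm, was at 45.4 and 180.5 against 8.27 and 17.7 CPM.

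In dm cells 2 members (5%) were lower without than with the floxed allele in the TGFβ experiment. This share was below that of all genes, of which 10.1% were called lower (16.1% called). The median of the members was -1.01 (all genes -0.026). Ccnb2 was at 96.7 and 104 CPM in dm/fl and 22.9 and 21.9 CPM in dm/- cells (log2 fold change -2.11, SE 0.76, adjusted p = 0.043), and Tyms, the thymidylate synthase gene, at 66.8 and 78.6 against 20.3 and 28.7 CPM (log2 fold change -1.55, SE 0.51, adjusted p = 0.025). EdgeR also called 2 lower, and its share over all genes is not given here. With any 1 of the 4 samples left out, 0 were called. E2f1 was among the 5 members above 0, at 37.9 and 48.6 CPM in dm/fl and 158 and 146 CPM in dm/- cells (log2 fold change 1.80, SE 0.73, adjusted p = 0.08). In the Wnt3a experiment the median was -0.41, limma and edgeR called 0 members, and 1 was lower at an unadjusted p under 0.05, beside 16% of all genes (16.5% called). That median was -0.76 without dm/fl replicate 1 and -0.078 without dm/fl replicate 2, where 2 members were called (all genes 39.2%).

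The other preset members of the dm cells were mostly lower. Mki67 was at 849 and 846 CPM in dm/fl and 144 and 135 CPM in dm/- cells (log2 fold change -2.59, SE 1.19, adjusted p = 0.13), Top2a at 764 and 812 against 388 and 440.5 CPM (log2 fold change -0.93, SE 0.93, adjusted p = 0.57) and Cdk1 at 319.8 and 322 against 122 and 162 CPM (log2 fold change -1.18, SE 0.64, adjusted p = 0.21). Cdc20 was at 80.7 and 102 against 20.9 and 23.6 CPM (log2 fold change -1.98, SE 0.81, adjusted p = 0.08), Plk1 at 59.97 and 87.02 against 25.6 and 19.4 CPM (log2 fold change -1.65, SE 1.00, adjusted p = 0.28) and Ccnb1 at 45.5 and 45.2 against 29.9 and 34.97 CPM (log2 fold change -0.47, SE 0.68, adjusted p = 0.73). Of the replication arm, Rrm2 was at 169 and 193 against 64.9 and 79.9 CPM (log2 fold change -1.31, SE 0.82, adjusted p = 0.3), Ccne1 at 13.7 and 17.5 against 7.46 and 11.00 CPM (log2 fold change -0.71, SE 0.76, adjusted p = 0.61) and Cdc6 at 31.5 and 49.6 against 20.1 and 38.3 CPM (log2 fold change -0.49, SE 1.05, adjusted p = 0.84). Mcm2 differed by 0.22 on the log2 scale and overlapped, and Pcna differed by -0.21.

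Between untreated D164A/- and fl/fl cells, no member was called. The median was 0.27 in the TGFβ and -0.060 in the Wnt3a experiment, and limma and edgeR called 0 of 40 in both, beside 19.4% and 17.1% of all genes. At an unadjusted p under 0.05 the counts were 1, Ccne2 (log2 fold change 2.63, SE 1.15, adjusted p = 0.1, all genes 14.6% higher at this limit), and 0.

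A second list of 78 further genes of replication and mitosis, which holds no member, was read beside them. Its median mean response to TGFβ was -0.53, with 73 of 78 below 0, and 3 were called lower (all genes 2.2%), the cytokinesis gene Anln (log2 fold change -1.36, SE 0.27, adjusted p = 0.00019), Ckap2 (log2 fold change -1.18, SE 0.25, adjusted p = 0.00046) and the spindle gene Nusap1 (log2 fold change -1.05, SE 0.29, adjusted p = 0.0065). Its medians with TGFβ were -0.83 in D164A/fl, -0.82 in D164A/-, -1.23 in dm/-, -0.51 in ΔC/- and 0.25 in dm/fl cells, with 4 called lower in dm/- (all genes 2.44%) and 2 in ΔC/- cells (all genes 3.69%). With Wnt3a its medians lay between -0.49 in D164A/fl and 0.49 in dm/fl cells. Between untreated cells of the TGFβ experiment 10 of the 78 were higher in D164A/- than D164A/fl cells (12.8%, all genes 8.06%), 5 lower in ΔC/- than ΔC/fl cells (6.41%, all genes 6.69%) and 2 lower in dm/- than dm/fl cells (2.56%, all genes 10.1%), so that only the first share was above that of all genes.

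The genes upstream of the program were called in different genotypes. Cdkn2b, the gene of the CDK inhibitor p15 and a known TGFβ target, rose in D164A/- cells, from 4.32 and 7.77 to 42.4 and 74.2 CPM (log2 fold change 3.06, SE 0.52, adjusted p = 0.00012), and was at 21.7 and 26.9 CPM without and 71.3 and 75.8 CPM with TGFβ in D164A/fl cells (log2 fold change 1.57, SE 0.52, adjusted p = 0.09). It was at 0 and 0.412 CPM without and 0 and 0 CPM with TGFβ in fl/fl cells and at 0 in the 4 dm/- samples of this experiment. In dm/- cells Myc fell from 441 and 287 to 102 and 63.7 CPM (log2 fold change -2.13, SE 0.48, adjusted p = 0.0028) and the cyclin D1 gene Ccnd1 from 586 and 574 to 134 and 196 CPM (log2 fold change -1.83, SE 0.38, adjusted p = 0.0012). Ccnd1 also fell in ΔC/fl cells (log2 fold change -1.43, SE 0.38, adjusted p = 0.011), in which the members overlapped, and the cyclin D2 gene Ccnd2 in dm/fl cells (log2 fold change -1.50, SE 0.42, adjusted p = 0.014, but adjusted p = 0.18 with edgeR), in which the mean member level was higher. The gene of the D cyclin kinase Cdk6 fell in dm/- cells (log2 fold change -1.52, SE 0.35, adjusted p = 0.0037). In ΔC/- cells 2 CDK inhibitor genes fell, Cdkn1b, the gene of p27 (log2 fold change -1.04, SE 0.27, adjusted p = 0.011), and Cdkn2c, the gene of p18 (log2 fold change -2.30, SE 0.42, adjusted p = 0.00024). Cdkn1a, the gene of p21, was at 476 and 479 CPM in untreated ΔC/- cells of the TGFβ experiment, which had the lowest members and, among untreated cells of that experiment, the highest Cdkn1a, and fell in dm/- cells with TGFβ (log2 fold change -1.58, SE 0.36, adjusted p = 0.0037). Cdkn2c fell over the 7 genotypes (mean log2 fold change -1.09, SE 0.16, adjusted p = 1.6e-06). The part of these regulators in the members' values was not tested.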

How the data were processed

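RNA was measured by stranded mRNA sequencing in 56 samples of 28 conditions with 2 replicates each, grouped by the labels. Per the methods and labels, reads were aligned to mm10 with STAR, counted in RefSeq exons with QuasR and analyzed in edgeR by the authors, whose STAR version is not given in the sources used here. The deposited signal values are CPM, reads scaled to an effective library size of 1 M reads, since every value was a whole number of reads within 0.001 reads. Column scaling was 0.81 to 1.14 of the read total. The table held 20314 Entrez identifiers, of which 20261 were matched to symbols in the GRCm38.p6 RefSeq table.

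The 13754 genes that reached 1 CPM in 2 or more samples were fitted as log2(CPM + 1) with limma 3.58.1 in R 4.3.3, with 1 coefficient per condition over all 56 samples, a trended prior and Benjamini-Hochberg adjustment over all genes. The recovered reads were also tested with edgeR 4.0.16 (quasi-likelihood). The GC trend was removed per sample by lowess (span 0.3) over 9381 genes, with the GC content taken as the median over annotated transcripts. The scripts were tested on simulated data in which 100 genes changed 2-fold and 100 changed 4-fold. In the simulated TGFβ response of dm/- cells limma called 10% and 61% of these, and 21 unchanged genes. EdgeR called 8% and 60% of them, and 4 unchanged genes. Both tools missed most 2-fold changes, and a member that was not called can still have changed. Limma's 21 unchanged genes stood beside 10 and 61 changed genes called, a larger share of false calls than its adjusted p limit states. For edgeR the 4 unchanged genes stood beside 8 and 60 changed ones. A member called by limma alone can therefore be a false call. The changed genes were drawn from all genes with enough reads and not from the members. For a single response the median SE was 0.76 for the members and 0.37 over all genes, so these percentages need not hold for the members. The members, arms and gene lists were chosen with earlier results of these data known, so their patterns are not independent support. All 40 members are placed by arm or role. Full values were given by rule for Mki67, Top2a, Ccnb1, Cdk1, Cdc20, Plk1, Mcm2, Pcna, E2f1, Ccne1, Cdc6 and Rrm2 where members were called, for the 3 largest mean responses in each direction and for the called member with the largest change, and other genes were named after their values were seen. Intervals from reads cover counting error only. Alternatives changed the pseudocount, filter, scaling, tool, samples in the fit, replicate block, GC trend and left-out samples. Some checks of the treatment and of cell type markers are not reported here.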

Additional observations from a re-analysis of the deposited data

Results flagged for a closer look

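Mean levels of the members, or of the G1/S and replication arm, were singled out where both treated samples of some genotypes lay below and both of others lay above their untreated samples. With TGFβ the mean member level was lower by this measure in D164A/fl (-0.83 on the log2 scale), D164A/- (-0.81) and dm/- cells (-1.25), and higher in dm/fl cells (0.28). For the G1/S and replication arm the values with TGFβ were -0.66 in D164A/fl, -0.76 in D164A/- and -1.12 in dm/- cells, against 0.53 in ΔC/- and 0.48 in dm/fl cells.

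With Wnt3a the mean member level was lower in D164A/fl (-0.61) and D164A/- cells (-0.25) and higher in dm/fl cells (0.30). The G1/S and replication arm was lower with Wnt3a in D164A/fl (-0.71) and D164A/- cells (-0.30) and higher in fl/fl cells (0.30). The difference between these genotypes in the mean level was not tested. The untreated samples of dm/fl in the Wnt3a experiment are among those whose replicates stood apart, and the Wnt3a responses of single members in fl/fl and dm/fl cells moved with the GC content of the transcripts. After removal of the GC trend the mean member level in dm/fl cells was higher by 0.14, and the G1/S and replication arm in fl/fl cells by 0.31.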

How the results depend on the processing

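The median over the members was counted as unmoved in all 36 comparisons under another pseudocount, no filter, median-of-ratios scaling, edgeR, the experiment alone and GC removal. With 1 sample left out this held in 216 of 240 cases. The check is coarse, since the SE of a member was 0.76 at the median for a single response. Medians near 0 could change sign, as that of ΔC/fl cells with TGFβ went from 0.057 to -0.034 after GC removal. Counts of members called moved more, and the cause was not tested. Square brackets give the genes called in either direction in the same fit, among 13754 tested unless stated. With TGFβ the count in D164A/fl cells (0) became 7 [446] in a fit on the compared samples. In D164A/- cells (0) it became 1 [688] after GC removal. In ΔC/- cells (1) it was 2 with the smaller pseudocount [1007], with edgeR [853] and in the experiment alone [1375]. In the compared samples it was 0 [656]. In dm/fl cells (0) it was 1 [1550] in the compared samples. In dm/- cells (0) it was 3 [1346] in the experiment alone and 3 [1114] after GC removal. For the mean TGFβ response (1) it was 0 [1289] with edgeR, 2 [672] in the experiment alone and 4 [3967] at the adjusted p alone. The difference of the TGFβ response of dm/- from fl/fl gave 1 [750] in the experiment alone and 1 [445] after GC removal. With Wnt3a the count in D164A/fl cells became 1 [703] after GC removal. Untreated in the TGFβ experiment, D164A/- against D164A/fl (5) gave 10 [2844] in the experiment alone and 9 [2647] after GC removal. There ΔC/- against ΔC/fl (6) gave 3 [1587 of 20314] without the filter and 14 [1877] with edgeR. It gave 18 [2163] in the experiment alone and 14 [1846] after GC removal. The dm/- against dm/fl comparison (2) gave 1 [2129 of 20314] without the filter, 9 [2737] in the experiment alone and 7 [2521] after GC removal. D164A/- against fl/fl gave 1 [3413] in the experiment alone. Untreated in the Wnt3a experiment, GC removal gave 1 [1344] for ΔC/- and 2 [2514] for dm/-. Leaving out the 2 conditions whose replicates stood apart was an alternative chosen after seeing the data. The counts were then 1 [1054] in dm/- with TGFβ and 2 [672] for the mean TGFβ response. Untreated in the TGFβ experiment they were 10 [1881] for ΔC/- and 4 [2480] for dm/-. Gins2 turned from -0.0033 to 0.0075 in the mean TGFβ response with the smaller pseudocount.

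The labels do not say that a replicate number marks a shared line, batch or day. Deviations of same-numbered samples correlated at 0.33 to 0.93 in 12 of the 14 pairs of conditions, and at -0.20 in ΔC/- with TGFβ and -0.068 in dm/fl with Wnt3a, so whether the numbers pair the samples was not settled. Square brackets again give the genes called in either direction among the 13754 tested. With a replicate block the counts with TGFβ were 4 [910] in D164A/fl, 1 [877] in D164A/- and 1 [1407] in ΔC/fl cells. They were 9 [1363] in ΔC/-, 1 [1737] in dm/fl and 17 [1382] in dm/- cells, and with Wnt3a 1 [857] in fl/fl and 1 [846] in D164A/fl cells. The block gave 2 [672] for the mean TGFβ response. For differences from fl/fl it gave 1 [1014] (D164A/fl), 2 [672] (ΔC/-) and 10 [890] (dm/-) with TGFβ. With Wnt3a these were 9 [822] (D164A/fl) and 11 [3512] (dm/fl). It gave 11 [2408], 14 [1795] and 8 [2319] for untreated D164A, ΔC and dm cells of the TGFβ experiment. For untreated ΔC cells of the Wnt3a experiment it gave 1 [1241]. GC removal together with the replicate block gave, with TGFβ, 10 [947] in D164A/fl, 4 [968] in D164A/- and 1 [1555] in ΔC/fl cells. It gave 12 [1518] in ΔC/-, 1 [1836] in dm/fl and 25 [1515] in dm/- cells, and with Wnt3a 2 [644] in fl/fl and 1 [957] in D164A/fl cells.

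With 1 sample left out, counts ranged from 0 to 1 with TGFβ in ΔC/fl, ΔC/- and dm/- and with Wnt3a in fl/fl cells, from 0 to 6 with Wnt3a in dm/fl cells, from 0 to 4 for the mean TGFβ response, and from 0 to 11 for the Wnt3a difference of dm/fl. Untreated, they ranged from 0 to 2 for D164A, 0 to 15 for ΔC and 0 to 0 for dm cells of the TGFβ experiment, from 0 to 18 for ΔC and 0 to 2 for dm cells of the Wnt3a experiment, and from 0 to 1 for D164A/- against fl/fl in the TGFβ experiment. Where leaving out 1 sample moved a count from 0 to 1, the share of the members was below that of all genes called in either direction. The highest shares for untreated ΔC cells and for the mean TGFβ response were above it. Such fits leave 1 sample in a group, so their counts are weak evidence. Signs turned for some uncalled genes. With TGFβ in ΔC/- cells these were Cdk1 (-0.55 to 0.33), Plk1 (-1.29 to 0.14) and Rrm2 (-0.48 to 0.021), and for the mean TGFβ response Mcm2 (-0.22 to 0.054), Mcm6 (-0.18 to 0.14) and Gins2 (-0.12 to 0.11). For the mean Wnt3a response they were Kif20a (-0.090 to 0.28), Ccnb1 (-0.11 to 0.32) and Rrm2 (-0.097 to 0.32). In untreated ΔC cells they were Mcm2 (-1.64 to 0.30), E2f1 (-1.02 to 0.34), Ccne1 (-1.22 to 0.48) and Rrm2 (-1.86 to 0.38), and in untreated dm cells Mcm2 (-0.083 to 0.52). The lowest member value rested on 7 reads, and the 2 replicates per condition limit the precision.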

Other observations

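Within conditions, the replicate with the lower mean member level also tended to have the higher level of Gadd45a, a stress-induced gene of growth arrest, in 25 of 28 conditions, and of Myc, in 23 of 28. In the 6 conditions whose replicates differed by more than 1 on the log2 scale, Gadd45a and Myc were higher in the lower replicate in 6 of 6. Cdkn2c, the gene of p18, and Id1, a gene that opposes differentiation, were higher in the lower replicate in 0 of these 6. Cdkn1a, the gene of p21, was higher in the lower replicate in 14 of 28 conditions. These genes were chosen after their values were seen, and no test was made.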
